A study of Mus musculus with 18 samples.

Results

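Treg cells that express the Foxp3 substitution A384T carried higher values of a small and varied group of genes than Treg cells with wild-type Foxp3 or with the substitutions I363V or R397W, and 10 of these genes are described here. They are the beta-tubulins Tubb2a and Tubb2b, the granule-docking protein Sytl4, the actin regulator Enah, the calcium channel Ryr2, the transcription factor Sp6, the kinase inhibitor Camk2n1, the decarboxylase Ddc, the GTPase-activating protein Arhgap20 and the purine enzyme Xdh. All 10 were found among the 18193 genes that had a probe set of their own on the array. The genes were chosen by their higher values in A384T cells than in the other groups, so every difference between A384T cells and another group is given for them as a description, without a test. No threshold was part of that choice.

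RNA of sorted CD4 T cells from lymph nodes and spleen of mice on a B6;129 background was measured on 18 Affymetrix arrays, without any treatment of the cells. Each mouse was heterozygous at Foxp3, an X-linked gene, with an allele marked by human CD2 (hCD2) and a wild-type allele marked by GFP, so a Treg cell shows the marker of the allele it uses. In mice with wild-type Foxp3 on both alleles, cells without either marker (conventional T cells, Tconv; 2 arrays), GFP cells (WT GFP; 2 arrays) and hCD2 cells (WT hCD2; 2 arrays, numbered 3 and 4) were sorted. In mice whose hCD2 allele carried A384T, the hCD2 cells (A384T; 3 arrays) and the wild-type GFP cells next to them (3 arrays) were taken, and from I363V and R397W mice the hCD2 cells (3 arrays each). Age, sex and the number of animals behind an array are not given in the sources used here, and p-values measure only the spread between these samples, which may be technical.

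Values are log2, with the Tconv arrays of every gene averaging 0, so the level of a gene itself is lost. Levels of different genes are therefore not compared, and a gene near 0 is one that did not differ from Tconv cells. Foxp3 ran from 6.38 to 7.59 on the Treg arrays and was at -0.07 and 0.07 on the Tconv arrays. The mean of 8 Treg identity genes lay between 4.35 and 4.54 on A384T arrays and between 4.47 and 4.55 on WT hCD2 arrays. On the wild-type GFP arrays of A384T mice it was at 4.56 to 4.72, above every A384T array. The mean was lowest among the Treg cells on I363V arrays (3.60 to 3.78) and R397W arrays (3.37 to 3.62).

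Foxp3 is the forkhead transcription factor that defines Treg cells, and the 3 substitutions lie in its DNA-binding forkhead domain and are known from patients with the immune disease IPEX. Wild-type Foxp3 both raises and lowers genes, so a gene can be high in A384T cells as an exaggerated Treg gene or as one that wild-type Treg cells do not raise above Tconv cells. Several of the 10 genes are best known outside lymphocytes: beta-tubulins, Ddc and Camk2n1 in neurons, Ryr2 in heart muscle, Sp6 in teeth and skin, and Sytl4 in endocrine cells.

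RefSeq promoter windows were at hand for 6 of the 10 genes (7 windows, build GRCm38.p6; Ddc has 2 start sites), and the 250 bases before the start site were searched on both strands. The forkhead sequence TGTTTAC was in 0 of the 7 windows and in 3.17% of all 32851 promoter windows of this length. Its variant TGTTTGC was also in 0 of 7, against 4.3% of all. The AP-1 sequence TGANTCA was in 1 of 7 (6.75% of all) and the TATA box sequence TATAAA in 2 of 7 (12.4% of all), and no match overlapped another. The windows of Tubb2a and Ddc hold the matches, and that of Sytl4, the gene with the largest A384T difference from WT hCD2, is shown beside them. Each is printed 5′ to 3′ in the direction of the gene, with matches in capitals.

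Tubb2a, chr13:34078009-34078258, minus strand: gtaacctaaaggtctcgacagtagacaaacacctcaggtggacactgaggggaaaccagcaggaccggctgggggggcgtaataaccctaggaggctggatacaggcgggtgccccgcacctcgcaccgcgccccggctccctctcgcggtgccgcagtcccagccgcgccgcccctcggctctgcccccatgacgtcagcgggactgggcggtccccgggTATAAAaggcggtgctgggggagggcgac
Ddc, chr11:11898145-11898394, minus strand: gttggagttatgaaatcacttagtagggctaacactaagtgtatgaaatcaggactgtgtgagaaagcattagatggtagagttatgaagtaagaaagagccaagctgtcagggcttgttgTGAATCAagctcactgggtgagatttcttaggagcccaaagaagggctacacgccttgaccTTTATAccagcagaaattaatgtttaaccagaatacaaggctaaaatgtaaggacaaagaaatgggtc
Sytl4, chrX:133981813-133982062, minus strand: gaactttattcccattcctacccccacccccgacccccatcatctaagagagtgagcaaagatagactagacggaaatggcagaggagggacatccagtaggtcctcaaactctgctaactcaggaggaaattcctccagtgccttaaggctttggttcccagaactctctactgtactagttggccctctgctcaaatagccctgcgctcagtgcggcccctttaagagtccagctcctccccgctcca

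Counted from the start site, the TATA box of Tubb2a begins at -29. In Ddc the AP-1 match begins at -129 and the TATA match, which reads TTTATA on this strand, at -68. A match is a run of letters and not a binding site, and nothing about Foxp3 follows from its absence in this window. Sytl4 lies on chromosome X, as does Foxp3. Tubb2a and Tubb2b are neighbours in the RefSeq annotation, with 1 annotated gene and no protein-coding gene between them.

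**Figure D1:**
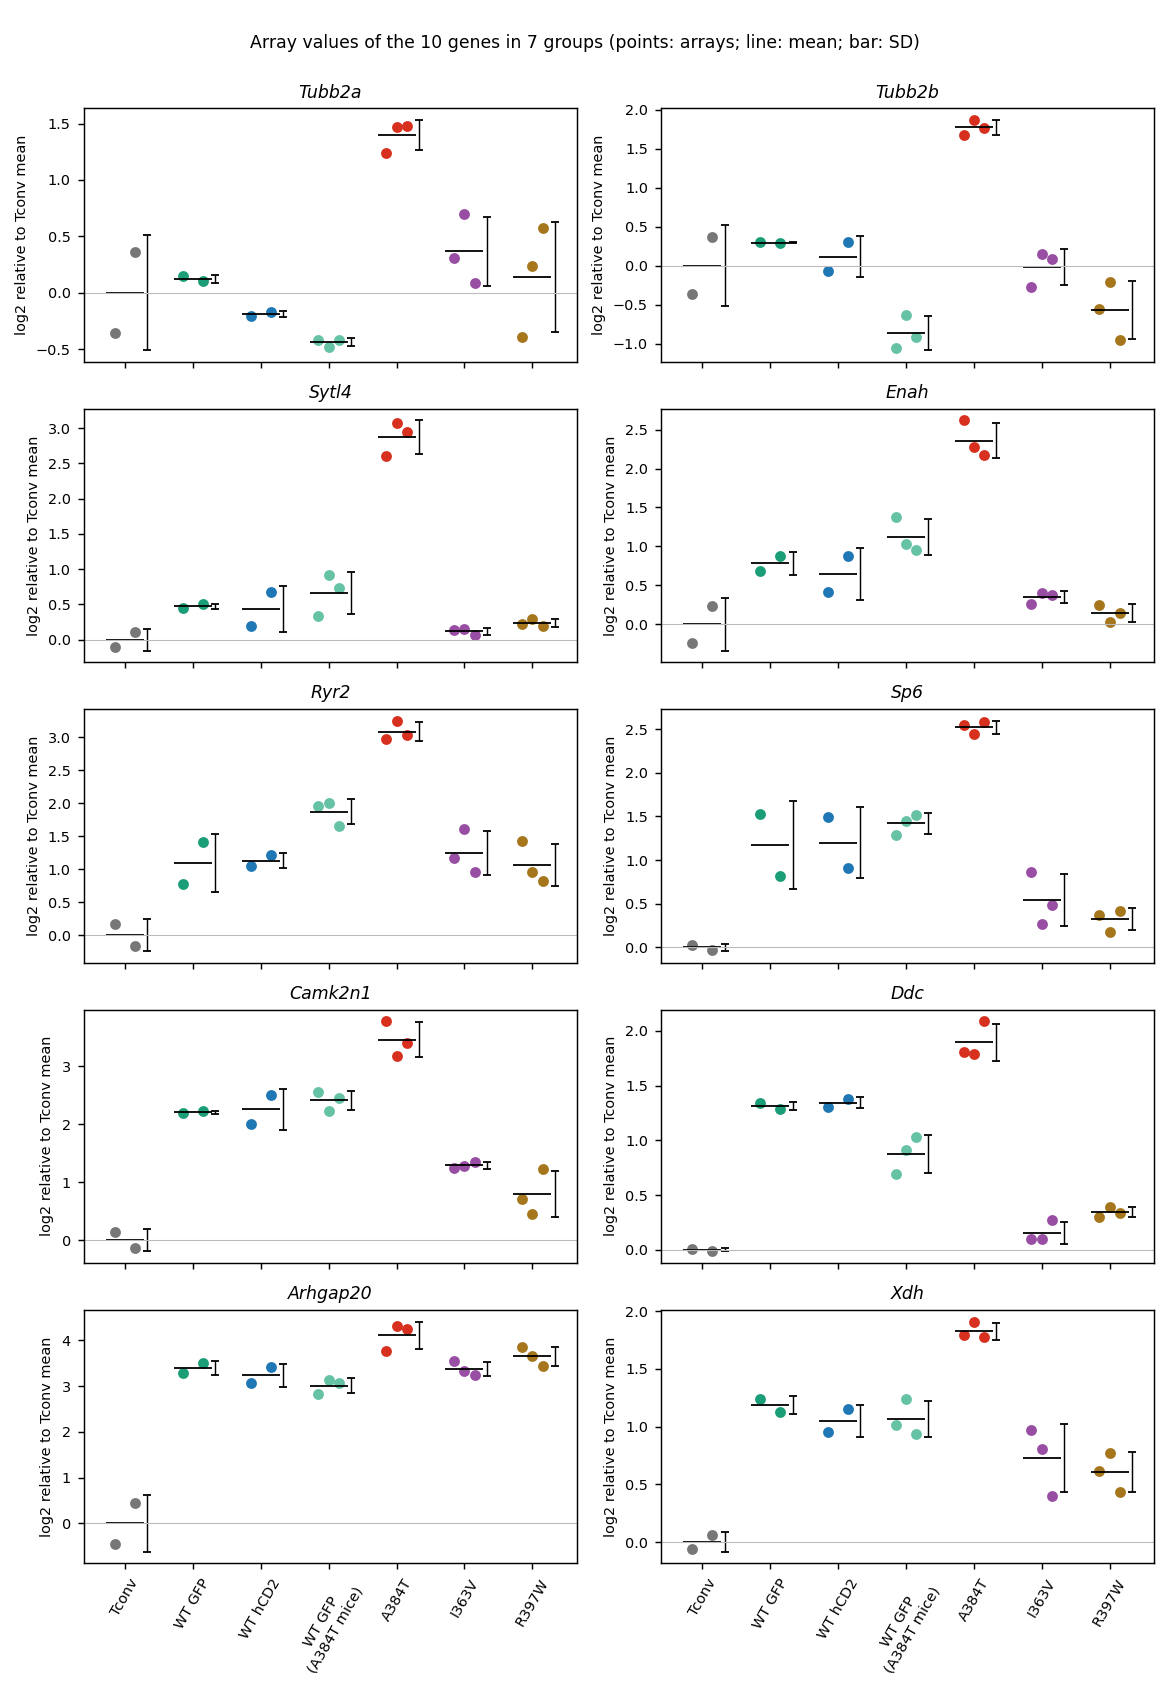
Each panel plots 1 gene, with the 7 groups along the x axis and the log2 value relative to the Tconv mean on the y axis; points are arrays, lines group means and bars SD. In 9 of 10 panels the 3 A384T arrays lie above all other arrays, and the gene without this gap is Arhgap20, where R397W array 1 reached 3.85.

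All 3 A384T arrays lay above all 15 other arrays for 9 of the 10 genes, as the choice of genes implies; over all 18193 genes this was so for 0.594%. Against WT hCD2, the cells with the same marker, the median of the 10 differences was 1.46 (all genes -0.02), and 7 of the 10 were among the 25 highest differences of all genes. Against wild-type neighbours from the same mice the median was 1.16, and 9 were among the 25 highest. The SEs below, also those within the mice, come from a fit of group means that did not pair arrays of equal number.

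The cytoskeletal genes fell into different patterns. Tubb2b, a beta-tubulin subunit of microtubules, was at 1.68, 1.87 and 1.77 on the A384T arrays, and at -0.07 and 0.30 on the WT hCD2 arrays. It was lowest on the wild-type GFP arrays of the same mice, at -1.06, -0.63 and -0.91, below every array of wild-type mice. A384T cells thus stood 1.66 ± 0.23 (SE) above WT hCD2 but 2.64 ± 0.21 above the wild-type cells of their own mice, which is 6.24-fold and the largest increase of all genes in that comparison. Its values were near 0 or lower in I363V cells (-0.28, 0.15 and 0.08) and lower in R397W cells (-0.56, -0.21 and -0.95).

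Tubb2a, the neighbouring beta-tubulin, was at 1.24, 1.47 and 1.48 on A384T arrays, -0.21 and -0.17 on WT hCD2 arrays and -0.42, -0.48 and -0.42 on the wild-type arrays of the same mice. A384T cells stood 1.59 ± 0.25 above WT hCD2 and 1.84 ± 0.22 above those wild-type cells. Unlike the values of Tubb2b, those of I363V cells (0.31, 0.70 and 0.09) all lay above the WT hCD2 arrays, and the R397W arrays spread from -0.39 to 0.57. The probe set of Tubb2a has the suffix _s_at, which marks probe sets that can match related transcripts, and Tubb2b is a related gene. How far the signals of the pair share RNA was not tested. A further probe set, assigned to both Tubb2b and the pseudogene Tubb2a-ps2 and so not used, was at 0.10, 0.27 and 0.46 on A384T arrays and at 0.56 and 0.27 on WT hCD2 arrays.

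Enah, which lengthens actin filaments at the leading edge of moving cells, was at 2.62, 2.28 and 2.18 on A384T arrays. Wild-type neighbours from the same mice were at 1.38, 1.03 and 0.95 and WT hCD2 at 0.41 and 0.88, while I363V cells (0.26 to 0.40) and R397W cells (0.03 to 0.25) were lowest among the Treg cells. The A384T difference was 1.71 ± 0.19 from WT hCD2 and 1.24 ± 0.17 within the mice. Within the mice it was nearly the same for each array number, at 1.23, 1.25 and 1.23.

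Arhgap20, a protein that switches off small GTPases, was high in every kind of Treg cell. It was at 3.76, 4.32 and 4.24 on A384T arrays, 3.06 and 3.41 on WT hCD2 arrays, and 3.85, 3.66 and 3.44 on R397W arrays. The A384T and R397W arrays overlapped, and their means differed by 0.46 ± 0.21. Of the 10 genes Arhgap20 alone lacked a gap between the A384T arrays and all other arrays. By the size of its A384T difference it was not the last of them. Against WT hCD2 it ranked 96 among all genes (0.87 ± 0.24), ahead of Xdh (141) and Ddc (459). Within the mice it ranked 15 (1.09 ± 0.21).

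Sytl4, or granuphilin, binds Rab27 and docks secretory granules at the plasma membrane. It was at 2.60, 3.07 and 2.94 on A384T arrays, and every other array was at 0.92 or lower. WT hCD2 arrays were at 0.20 and 0.67, wild-type neighbours from the same mice at 0.34, 0.92 and 0.73, I363V at 0.06 to 0.15 and R397W at 0.19 to 0.30. The difference from WT hCD2 was 2.43 ± 0.18, or 5.4-fold, the highest of all genes, and that within the mice was 2.21 ± 0.16, second to Tubb2b.

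Both genes of calcium signalling were already above Tconv cells on every wild-type Treg array. Ryr2, a channel that releases calcium from internal stores, was at 2.97, 3.25 and 3.03 on A384T arrays, 1.05 and 1.21 on WT hCD2 arrays, and 1.96, 2.0 and 1.65 on the wild-type arrays of A384T mice. These neighbours lay above all arrays of the wild-type mice and of the other mutants. The A384T excess was 1.95 ± 0.23 against WT hCD2 and 1.21 ± 0.20 within the mice. I363V (0.96 to 1.61) and R397W (0.82 to 1.42) overlapped WT hCD2.

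Camk2n1, an inhibitor of the calcium/calmodulin-dependent kinase CaMKII, was at 3.78, 3.18 and 3.41 on A384T arrays and at 2.01 and 2.50 on WT hCD2 arrays. In contrast to Ryr2, the other mutants lay below the wild-type Treg cells, with I363V at 1.24, 1.28 and 1.35 and R397W at 0.71, 0.45 and 1.23. The A384T difference from WT hCD2 was 1.20 ± 0.22, and those of I363V and R397W, which share the same WT hCD2 arrays, were -0.96 ± 0.22 and -1.46 ± 0.22.

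Sp6, a zinc-finger factor of the Sp family, behaved like Camk2n1. It was at 2.55, 2.44 and 2.58 on A384T arrays, at 1.49 and 0.91 on WT hCD2 arrays, at 0.27 to 0.86 in I363V cells and at 0.18 to 0.42 in R397W cells. A384T cells stood 1.33 ± 0.21 above WT hCD2, and the differences of I363V and R397W cells from WT hCD2 were -0.66 ± 0.21 and -0.88 ± 0.21. The WT hCD2 arrays lay far apart for this gene, which sets its SD of 0.41 there.

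Of the enzymes, Ddc makes dopamine and serotonin from their amino acid precursors. It was at 1.81, 1.79 and 2.09 on A384T arrays and at 1.31 and 1.38 on WT hCD2 arrays, so its A384T excess (0.55 ± 0.12) was the smallest of the 10 in that comparison. Its larger contrast was with the other mutants, which sat near the Tconv cells at 0.10, 0.10 and 0.27 (I363V) and at 0.30, 0.39 and 0.34 (R397W). Their differences from WT hCD2 were -1.19 ± 0.12 and -1.0 ± 0.12. The wild-type cells of A384T mice, at 0.69, 0.91 and 1.03, lay between these groups.

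Xdh, which oxidises hypoxanthine and xanthine to urate, was at 1.79, 1.91 and 1.78 on A384T arrays. WT hCD2 (0.95 and 1.15) and wild-type neighbours from the same mice (1.01, 1.24 and 0.94) were alike in range, and I363V (0.40 to 0.97) overlapped the lower of them. The A384T difference was 0.78 ± 0.16 from WT hCD2 and 0.77 ± 0.14 within the mice. R397W cells (0.43 to 0.77) lay below all wild-type Treg arrays.

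**Figure D2:**
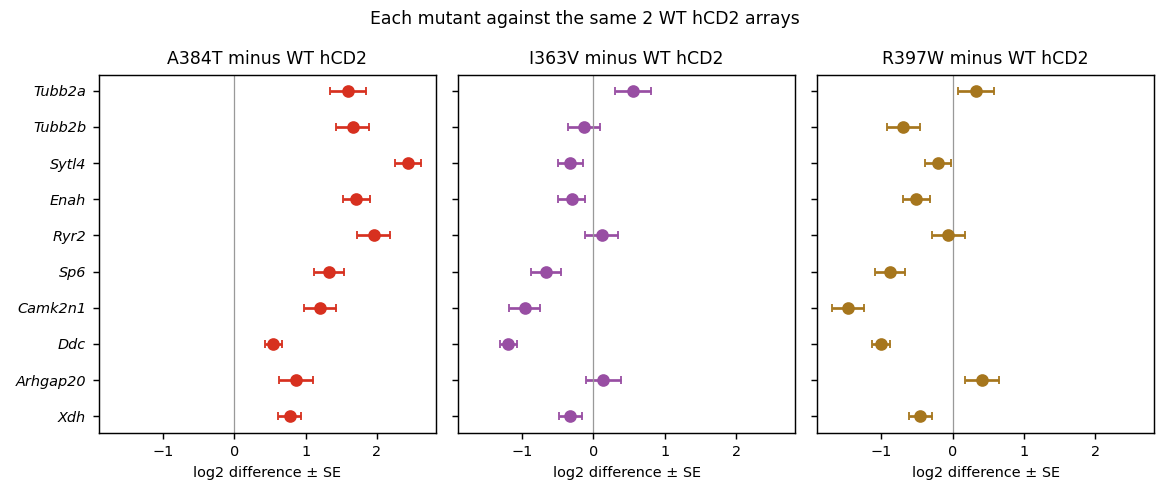
The panels plot, for each gene, the log2 difference ± SE of A384T, I363V and R397W from the same 2 WT hCD2 arrays. A384T differences run from 0.55 to 2.43, while Camk2n1, Ddc and Sp6 lie to the left of 0 in the other mutants (-1.46 to -0.66) and Ryr2 and Arhgap20 lie close to it (-0.06 to 0.41).

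On every array, Camk2n1, Ddc, Sp6 and Enah lay on opposite sides of WT hCD2 in A384T cells and in the other mutants. For Enah the gap was narrow, with I363V cells reaching 0.40 and the lower WT hCD2 array at 0.41. Tubb2a, Ryr2 and Arhgap20 had no array group of I363V or R397W wholly below the WT hCD2 arrays. The 3 comparisons with WT hCD2 share its 2 arrays, so they are not independent of each other. Between the reporters in wild-type mice, WT hCD2 and WT GFP differed by at most 0.31 in either direction over the 10 genes.

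Whether the 10 genes belong to the wild-type Treg programme was asked by setting WT GFP cells against Tconv cells. No A384T value enters this difference, but both groups may have served as references when the genes were picked. The probe sets, picked by variance over all arrays, favour differences from Tconv cells, for the 10 genes and for all genes. In limma's moderated test with Benjamini-Hochberg adjustment over all genes, 7 of the 10 were higher in WT GFP cells and 3 were not called, against 2.65% of all genes called higher. For 8 genes both WT GFP arrays lay above both Tconv arrays, which was so for 18.7% of all genes. The median difference of the 10 was 1.13, and that of all genes -0.03. As these are bulk samples, fewer cells with a transcript and less of it per cell cannot be told apart.

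Arhgap20 led, at 3.28 and 3.50 in WT GFP cells and -0.44 and 0.44 in Tconv cells, a 10.5-fold difference (3.39 ± 0.26, adjusted p = 1.35e-06). Camk2n1 followed at 2.19 and 2.22 against 0.14 and -0.14 (2.21 ± 0.24, adjusted p = 4.37e-05). The enzymes Ddc (1.32 ± 0.13, adjusted p = 1.77e-05) and Xdh (1.19 ± 0.17, adjusted p = 0.000556) rose a little over 2-fold, by 2.49 and 2.28 times. These 4 genes were called under each of the 9 alternatives that refit all genes, but the other probe sets of Camk2n1 (0.11, adjusted p = 0.793) and Ddc (0.15, adjusted p = 0.780) were not.

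Sp6 (1.17 ± 0.23, adjusted p = 0.00791), Ryr2 (1.09 ± 0.25, adjusted p = 0.0212) and Enah (0.78 ± 0.20, adjusted p = 0.0446) also passed, with smaller margins. All 3 were lost when only these groups were fitted (adjusted p = 0.186, 0.213 and 0.260), and with averaged probe sets Sp6 (0.20, adjusted p = 0.521) and Enah (0.09, adjusted p = 0.715) were. Without WT GFP array 2, Ryr2 (0.78, adjusted p = 0.258) and Enah (0.68, adjusted p = 0.277) were not called, and without WT GFP array 1 neither Sp6 (0.82, adjusted p = 0.120) nor Enah (0.88, adjusted p = 0.109) was. Without Tconv array 1 Enah was not called (0.54, adjusted p = 0.317), and without Tconv array 2 neither Ryr2 (0.93, adjusted p = 0.200) nor Sp6 (1.15, adjusted p = 0.0641) was. The genes that did not pass were Sytl4 (0.48 ± 0.19, adjusted p = 0.257; 0.0172 with the replicate block), Tubb2b (0.29 ± 0.26, adjusted p = 0.675) and Tubb2a (0.12 ± 0.27, adjusted p = 0.901). The arrays of the tubulins overlapped between WT GFP and Tconv cells.

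Whether wild-type Treg cells differ when they share a mouse with A384T cells was asked by comparing the GFP cells of A384T mice with those of wild-type mice (3 arrays against 2). Over all 18193 genes limma called 0% in either direction, with 473 (2.6%) at an unadjusted p under 0.05. The wild-type arrays of A384T mice may have served as a reference when the 10 genes were picked, which would favour low values there, so their differences are given as a description. The widest gap was that of Tubb2b, with -1.06, -0.63 and -0.91 against 0.30 and 0.29 (-1.16 ± 0.23). Tubb2a (-0.57 ± 0.25) and Ddc (-0.44 ± 0.12) were also lower without overlap. Ryr2 stood on the other side, at 1.96, 2.0 and 1.65 against 0.78 and 1.41 (0.78 ± 0.23).

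R397W and I363V cells, the remaining mutants, were then compared with each other (3 arrays against 3). No A384T value enters this difference. Both groups may have served as references when the 10 genes were picked, which would favour low values in both. In limma 0 of the 10 genes were called, and 0.0605% of all genes were called higher and 0.022% lower in R397W cells. At an unadjusted p under 0.05, 2 of the 10 (against 8.52% of all genes in either direction) were lower, Tubb2b (-0.56 ± 0.21, adjusted p = 0.448) and Camk2n1 (-0.49 ± 0.20, adjusted p = 0.481). The other differences lay between -0.22 and 0.27. Their SEs were 0.11 to 0.22, so these values do not show that the mutants are alike.

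**Figure D3:**
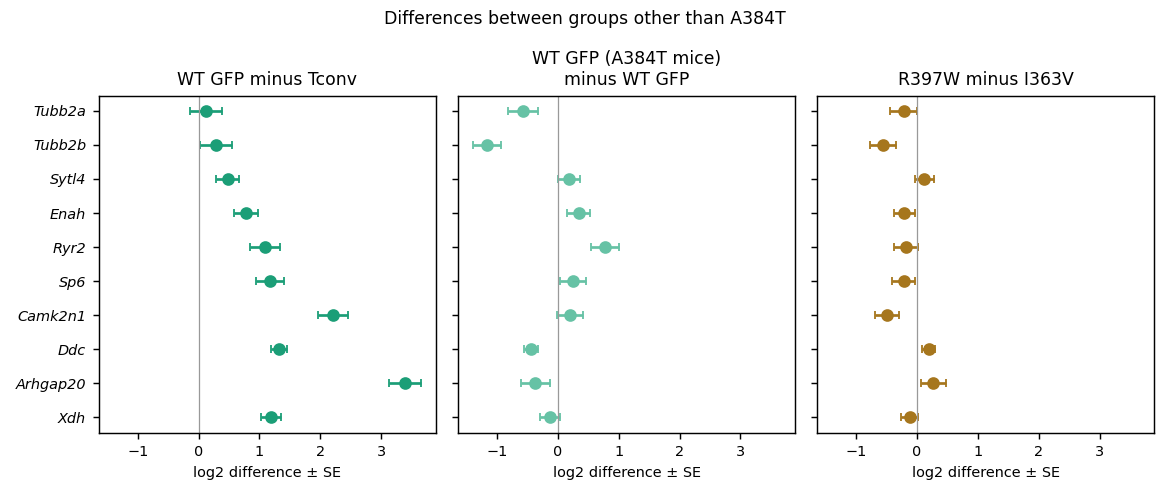
For each gene the log2 difference ± SE is plotted for WT GFP minus Tconv, WT GFP of A384T mice minus WT GFP of wild-type mice, and R397W minus I363V. In the first panel 7 genes from Enah to Xdh lie at 0.78 or higher; the second panel is a description, with the widest gap at Tubb2b (-1.16), and in the third none of the 10 passed the test.

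The relatives of the 10 genes were listed by family or pathway in 10 lists, without the 10 genes themselves, and 212 of 230 listed genes were measured. These relatives were listed by family or pathway and were tested, although the lists were made with earlier results of these data known. The median of the relatives against WT hCD2 was 0.00 (all genes -0.02). In that comparison limma called 1 of 212 higher and 0 lower (all genes 0.137% and 0.143%). Within the A384T mice it called 1 higher and 1 lower (all genes 0.17% and 0.352%), with a median of -0.01. With the replicate number as a block, which pairs the arrays of these mice, 5 were higher and 12 lower (all genes 1.81% and 3.42%). The block fit used only the arrays of these mice and left few residual degrees of freedom. Its SEs therefore rest largely on the spread shared over all genes. For the relative Stx11 the SE was 0.08 with the block and 0.25 without it.

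The gene higher in both comparisons was Exph5, which like Sytl4 is an effector of Rab27. It was at 0.73, 0.55 and 0.92 on A384T arrays, 0.04 and 0.01 on WT hCD2 arrays, and -0.23, 0.21 and -0.06 on the wild-type arrays of the same mice, and no other array exceeded 0.25. It rose by 0.71 ± 0.13 against WT hCD2 (adjusted p = 0.0352) and by 0.76 ± 0.12 within the mice (adjusted p = 0.00624). Both calls were lost when only the groups compared were fitted (adjusted p = 0.285 against WT hCD2 and 0.0783 within the mice). Under the 10 other alternatives the call within the mice held. Against WT hCD2 the call did not hold without WT hCD2 array 3 (0.72, adjusted p = 0.153) or 4 (0.69, adjusted p = 0.434), or without A384T array 1 (0.71, adjusted p = 0.111) or 3 (0.61, adjusted p = 0.146). Of the 21 genes measured in the Rab27 secretion list the other 20 were not called without the block. Stx11, a SNARE protein of cytotoxic granule release, was at 1.34, 1.55 and 1.68 in A384T cells against 2.26, 2.75 and 2.76 in wild-type neighbours from the same mice (-1.06 ± 0.25, adjusted p = 0.100). With the replicate block this decrease was called (adjusted p = 0.000214), as was that of the GTPase Rab27a, the partner of Sytl4 (-0.40, adjusted p = 0.0377).

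The gene that fell was Ryr3, another ryanodine receptor, in the opposite direction to Ryr2. It was at -0.62, -0.87 and -0.51 on A384T arrays and at 0.47, 0.57 and 0.79 on the wild-type arrays of the same mice (-1.28 ± 0.16, adjusted p = 0.00154). Against WT hCD2 (0.25 and 0.22) the arrays did not overlap either, but the difference did not pass (-0.91 ± 0.18, adjusted p = 0.0649). The remaining 19 genes of calcium release and entry were not called in either comparison without the block; with it Stim2 was called higher (0.35, adjusted p = 0.0469).

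Among 20 tubulins and tubulin-folding factors, 0 were called in limma in either comparison, and the largest difference from WT hCD2 was Tuba4a, an alpha-tubulin (0.44 ± 0.24, adjusted p = 0.692). Likewise 0 were called of 24 microtubule-associated proteins, where the destabiliser Stmn1 differed most from WT hCD2 (-0.99 ± 0.47, adjusted p = 0.625). Within the mice it was Map6, which stabilises microtubules (-0.97 ± 0.22, adjusted p = 0.0762), and with the replicate block this decrease was called (adjusted p = 0.000271). Of 24 genes of actin elongation 0 were called, with the Ena/VASP-binding protein Raph1 at -0.85 ± 0.33 (adjusted p = 0.515); with the replicate block within the mice it fell by 0.99 (adjusted p = 0.000514), Diaph3 (-0.34) and Cfl1 (-0.38) were also called lower and Lpp (0.37) higher.

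In the same way 0 of 12 calmodulin-dependent kinases (Camkv, -0.26 ± 0.11, adjusted p = 0.582) and 0 of 20 Sp and Kruppel-like factors (Klf4, 1.22 ± 0.88, adjusted p = 0.772) were called. With the replicate block within the mice Klf7 was called higher (0.51, adjusted p = 0.00873), and Klf10 (-0.57, adjusted p = 0.00457) and Klf12 (-0.65, adjusted p = 0.0242) lower. Without the block neither were any of 18 genes of aromatic amine synthesis and breakdown (Pnmt, -0.34 ± 0.14, adjusted p = 0.574) or of 23 of purine breakdown and molybdenum enzymes. In that last list the adenosine kinase Adk differed most (-0.75 ± 0.26, adjusted p = 0.436), and with the replicate block within the mice it (-0.53, adjusted p = 0.00816) and Pnp (-0.45, adjusted p = 0.0158) were called lower. Of the 212 relatives, 26 (12.3%) had an unadjusted p under 0.05 against WT hCD2, where 8.07% of all genes did, and 14 (6.6%) within the mice without the block, where 5.03% did.

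**Figure D4:**
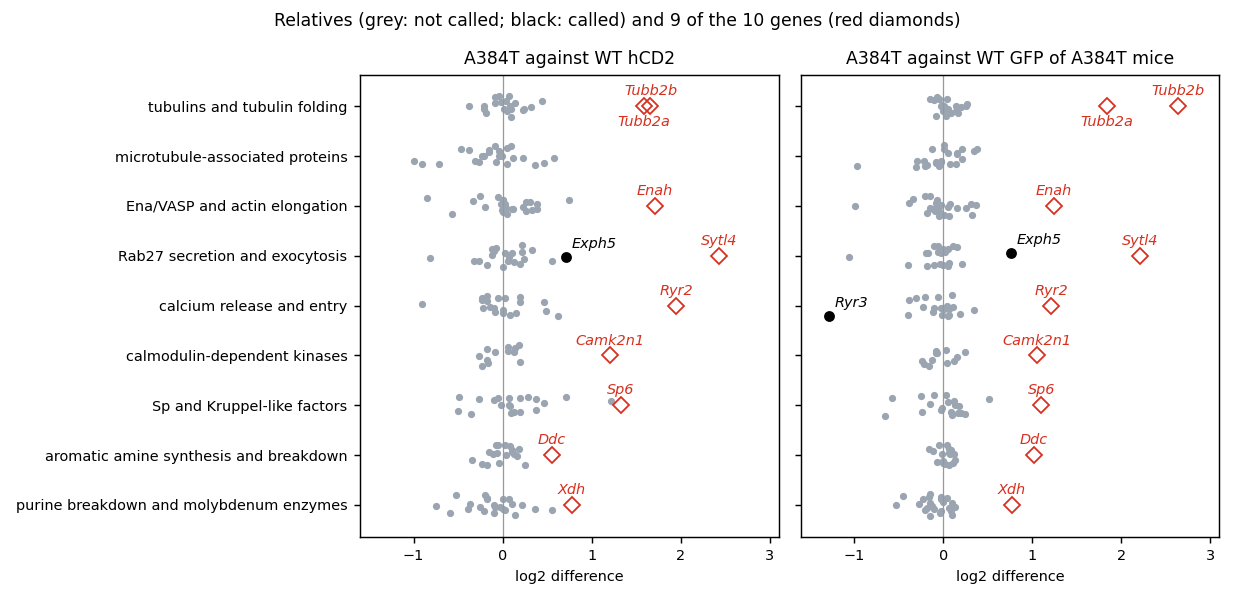
Each grey or black point is a relative, placed by its log2 difference in A384T cells from WT hCD2 (left) or from wild-type GFP cells of the same mice (right), with 9 of the 10 lists along the y axis; red diamonds are the 10 genes other than Arhgap20. Exph5 (0.71 and 0.76) and Ryr3 (-1.28, right) are the called relatives, and the diamonds lie between 0.55 and 2.64.

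Over the 45 pairs of the 10 genes, the correlation across the 15 arrays other than A384T had a median of 0.53 and ran from -0.48 to 0.88. Camk2n1 and Sp6 were most alike (0.88), and the tubulins stood apart, with Tubb2a at -0.41 to Sytl4 and -0.42 to Enah. These values share the groups of the arrays. When each group's mean was removed, the median over the 18 arrays was 0.08, with a range from -0.56 to 0.73. Sytl4 and Arhgap20 (0.73), Tubb2b and Arhgap20 (0.63) and Tubb2b and Sytl4 (0.61) had the highest values.

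The 5 other genes whose values over the 18 arrays were most like the mean of the 10 were Adipoq (Pearson r = 0.93), Wnt10a (0.93), Peli2 (0.92), Slc35d1 (0.91) and Zfp608 (0.91). Wnt10a, a secreted Wnt ligand, was at 1.39 ± 0.15 (SD, n = 3) in A384T cells and 0.40 ± 0.03 (SD, n = 2) in WT hCD2 cells. Peli2, a ubiquitin ligase, was at 2.32 ± 0.49 and 1.22 ± 0.06, and in I363V and R397W cells at 0.86 ± 0.35 and 0.80 ± 0.18. Adipoq, Slc35d1 and Zfp608 reached 0.92, 1.76 and 1.5 in A384T cells against 0.40, 1.04 and 0.88 in WT hCD2 cells. They were found by their likeness to a profile that is high in A384T cells, so these values are a description.

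Because several of the 10 genes are neuronal, markers of neurons and neuroendocrine cells were examined with those of other cells the gate could hold. Their mean over 20 genes was 0.07 to 0.17 on A384T arrays, 0.01 to 0.12 on WT hCD2 arrays and 0.00 to 0.08 on the wild-type arrays of the same mice, and 0 of the 20 were called in limma in either comparison without the block. With the replicate block within the mice the synaptic vesicle protein Syp was called higher (0.89, adjusted p = 0.00645). The mean of 12 myeloid markers was -0.81 to 0.02 on A384T arrays, -0.04 to 0.09 on WT hCD2 arrays and -0.62 to 0.20 in the same mice; with the block 4 of the 12 (Lyz2, Fcgr3, S100a8 and S100a9) were called lower, by differences of -0.56 to -0.40. B cell (9 genes, -0.13 to 0.19), CD8 T and NK cell (9, -0.53 to -0.19), erythroid and platelet (8, -0.07 to 0.00) and stromal and endothelial markers (10, -0.09 to 0.13) had A384T ranges that overlapped those of WT hCD2 arrays. So did T cell identity genes (9, 0.07 to 0.42). Of the 8 Treg identity genes, 1 was called higher and 4 lower with the block within the mice (all genes 1.81% and 3.42%). With the block the cytotoxic genes Nkg7 (0.94, adjusted p = 0.000231) and Prf1 (0.42, adjusted p = 0.0132) were called higher, and of the stromal list Col1a2 higher (0.39) and Vim lower (-0.47). The part of other cells in the differences was not tested.

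The 10 genes had 24 probe sets, and the values above come from the 1 of each gene with the largest variance over all arrays. Only Tubb2b and Xdh had a single probe set. Of the 14 others, only that of Arhgap20 showed an A384T difference above 0.5 from WT hCD2 (0.55 ± 0.44) and within the mice (0.93 ± 0.39). The next against WT hCD2 were 2 of Enah (0.47 ± 0.10 and 0.39 ± 0.13) and that of Tubb2a (0.37 ± 0.15), and within the mice those of Tubb2a (0.47 ± 0.13) and Camk2n1 (0.38 ± 0.10). Averaging all probe sets of a gene lowered the median difference of the 10 from 1.46 to 0.75 against WT hCD2. The variance over all arrays was 0.302 to 1.439 for the probe sets used, 1.078 for the other one of Arhgap20 and 0.016 to 0.08 for the remaining 13, and whether they detect the transcripts cannot be read from centred values.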

How the data were processed

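The deposited values are on a log2 scale and come from RMA, according to the submitters' processing notes; its software and version are not given in the sources used here, and the log base is that of RMA by convention. The deposited values were shifted at every probe set so that the Tconv arrays sum to 0 (largest absolute sum 1.0e-06), which keeps differences and removes levels; filters on dim probe sets were therefore not possible. Array medians ran from -0.063 to 0.016. Scanner files and scan batches were not analysed here. The number of arrays limits the precision.

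By the platform annotation 34945 probe sets carried a single gene symbol, 932 carried more than 1 and 9211 carried no symbol; 13 control rows were dropped. For each of 18193 genes the most variable probe set across all arrays was kept. Group means of all arrays were fitted with limma 3.58.1 in R 4.3.3 (11 residual and 3.3 prior degrees of freedom), with two-sided moderated tests and genes called where p, adjusted across all of them by Benjamini-Hochberg, was under 0.05. The fit was tested on simulated data. Python 3.11.15 was used with pandas 2.3.3, numpy 2.4.6 and matplotlib 3.10.9.

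The 10 genes and all lists were chosen with earlier results of these data known. Named relatives were those called in A384T cells against either wild-type group and the largest difference of each list from WT hCD2; the most similar genes were the 5 with the highest correlation to the mean of the scaled 10. In A384T mice, hCD2 and GFP arrays of equal number deviated together (correlations over genes 0.69, 0.65 and 0.58; unequal numbers -0.45 to -0.16), so the numbers pair them; this rests on the data, as no label states it. Alternatives were averaged probe sets, other probe sets, arrays with equal medians, robust eBayes, only the groups compared, each array left out and the replicate block. The result of 1 list of relatives is not reported here by itself; its genes are part of the totals.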

Additional observations from a re-analysis of the deposited data

How the results depend on the processing

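The count of the 10 genes called in WT GFP against Tconv cells was 7; it was 5 to 6 with 1 array left out, 5 with averaged probe sets, 8 with the replicate block (12.3% of all genes called higher) and 4 when only these 2 groups were fitted, where 2 residual degrees of freedom are left. For R397W against I363V, where equal numbers did not deviate together (0.04, 0.34 and 0.01), the count was 0 with the block and under every alternative run that refits all genes. With averaged probe sets the median difference of the 10 fell to 0.75 against WT hCD2 and 0.74 within the mice. Relatives called against WT hCD2 were 0 when only these groups were fitted and 0 to 1 with an array left out. Within the mice there were 4 with averaged probe sets, 4 when only these groups were fitted, and 17 with the replicate block.

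Where a difference was called or, in A384T comparisons, over 2 SE, its sign turned with another probe set in 12 cases; turned signs of smaller differences that were not called are not counted. For WT GFP against Tconv these were Enah (-0.00, -0.23 and -0.10), Ryr2 (-0.05) and Sp6 (-0.24 and -0.22). For A384T they were Enah (-0.27), Sp6 (-0.02) and Ddc (-0.16) against WT hCD2, and Enah (-0.11), Ryr2 (-0.22) and Ddc (-0.05) within the mice, an alternative chosen after seeing the data; the cause was not tested. Of 1190 values of single genes under the other alternatives, 1092 kept direction and call or moved by less than the spread between arrays, 74 moved further, 18 lost and 6 gained a call, and 0 turned sign from a called value or, in comparisons not tested, from a difference over 2 SE.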
